A study of Mus musculus with 6 samples.

Results

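The genes described here are the G1/S and DNA replication genes, a named set of 39 genes that act as a cell passes from G1 into S phase and copies its DNA. A member was read where a probe set of the deposited value table carried that gene symbol and no other, and the probe set with the highest mean over all arrays stood for the gene. That gave 38 of the 39 members, out of 18193 genes read this way; Chaf1a was not read. All 38 lay above the level used to leave out dim genes, so they belong to the 11113 genes tested. The members were compared between whole hearts of wild-type mouse embryos and of siblings that carried FOG-2R3K5A, with 3 arrays of each genotype. FOG-2 works with GATA factors in heart development, and the R3K5A form is known to lack contact with NuRD, a chromatin remodelling complex. The embryos were at embryonic day 16.5, came from double heterozygous crosses and had a mixed C57/B6 and 129 S6 background, and both genotypes shared these features. The labels call the samples biological replicates but do not say whether a replicate was 1 heart or several. They also do not say whether FOG-2R3K5A (mutant from here on) was homozygous. The p-values therefore set a genotype difference against the spread between samples of the same genotype among these 6.

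In G1, cyclin D with CDK4 or CDK6, and then cyclin E with CDK2, phosphorylate the retinoblastoma protein and free E2F factors, which switch on the genes of DNA replication. The origin recognition complex, CDC6 and CDT1 load the ring of MCM2 to MCM7 onto DNA, and the GINS complex helps turn it into an active helicase. Primase and polymerase alpha then start each strand, replication factor C loads the sliding clamp PCNA, and ribonucleotide reductase, thymidylate synthase and thymidine kinase supply the building blocks. In the fetal heart, cardiomyocytes still divide, and this program is known to decline after birth. In RNA from whole hearts, fewer cycling cells and less of a transcript per cycling cell cannot be told apart.

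Many members are known targets of E2F, so their promoters were searched for 4 spellings of the E2F site, TTTCCCGC, TTTGGCGC, TTTCGCGC and TTTGCCGC, on both strands, in windows from 250 bases before to 50 bases after the start of transcription. The windows came from RefSeq (build GRCm38.p6), which held 36 for 32 members; Ccnd1, Ccnd2, Ccne2, Gins1, Gins2, Mcm4 and Prim2 have no window here. A site was found in 11 of the 36 windows (30.6%), against 461 of the 11584 windows of genes tested (3.98%) and 744 of all 32851 (2.26%). A list of other replication genes had one in 10 of 42 windows (23.8%). The holders were Cdc6, Cdk2, Cdt1, Mcm3, Mcm5, Mcm6, Mcm7, Orc1, Pola1, Rfc3 and Uhrf1. Matches that overlap one another, as in Mcm5 and Mcm6, were counted separately. The windows of 4 holders are printed below, those with the smallest p for a genotype difference, read 5′ to 3′ on the strand of the gene, with the site in capitals. The Orc1 window is chr4:108579204-108579503 on the plus strand, with a site that begins at position -27 from the start. For Uhrf1 it is chr17:56304063-56304362 on the plus strand, 1 of its 2 windows, with a site at -185. For Mcm7 it is chr5:138171834-138172133 on the minus strand, also 1 of 2 windows, with sites at -165 and 17. For Mcm3 it is chr1:20820263-20820562 on the minus strand, with sites at 20 and 39.
Orc1: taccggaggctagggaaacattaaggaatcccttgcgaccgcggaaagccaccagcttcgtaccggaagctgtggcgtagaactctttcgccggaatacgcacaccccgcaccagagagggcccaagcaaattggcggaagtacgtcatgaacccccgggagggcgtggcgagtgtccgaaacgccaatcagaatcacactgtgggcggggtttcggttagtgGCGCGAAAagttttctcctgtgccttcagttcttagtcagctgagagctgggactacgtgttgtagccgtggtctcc
Uhrf1: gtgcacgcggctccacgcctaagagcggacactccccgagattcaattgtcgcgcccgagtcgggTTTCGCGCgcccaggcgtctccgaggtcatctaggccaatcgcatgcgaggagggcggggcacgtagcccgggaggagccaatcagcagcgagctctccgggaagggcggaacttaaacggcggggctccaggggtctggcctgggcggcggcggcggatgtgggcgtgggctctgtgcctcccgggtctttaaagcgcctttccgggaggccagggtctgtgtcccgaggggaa
Mcm7: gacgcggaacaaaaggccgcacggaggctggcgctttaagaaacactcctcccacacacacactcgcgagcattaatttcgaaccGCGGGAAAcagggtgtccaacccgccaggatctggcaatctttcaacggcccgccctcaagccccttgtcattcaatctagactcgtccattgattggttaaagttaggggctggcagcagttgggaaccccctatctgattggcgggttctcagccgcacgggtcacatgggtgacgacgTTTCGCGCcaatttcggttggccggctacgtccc
Mcm3: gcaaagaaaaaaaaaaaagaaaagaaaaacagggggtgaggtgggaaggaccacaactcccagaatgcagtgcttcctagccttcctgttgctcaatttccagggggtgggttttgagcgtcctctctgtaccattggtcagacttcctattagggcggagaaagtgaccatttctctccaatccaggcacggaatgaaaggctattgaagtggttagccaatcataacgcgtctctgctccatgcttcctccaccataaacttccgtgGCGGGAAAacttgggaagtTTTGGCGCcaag

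The CCAAT box (CCAAT, both strands, counted on its own) was in 21 of the 36 member windows (58.3%), against 37.4% of all windows. It was in 26 of 31 windows (83.9%) of G2/M and mitosis genes and in 18 of 42 (42.9%) of other replication genes. Every window of an MCM gene held one, 7 of 7. The CHR element (TTTGAA, both strands), known from genes of G2 and mitosis, was in 2 of 36 member windows (5.56%), in 12.1% of the windows of genes tested and in 17.9% of all. Other replication genes held it in 10 of 42 windows (23.8%). In a list of genes of G2/M and mitosis it was in 24 of 31 windows (77.4%), while an E2F site was in 1 of 31. These are matches of letters and do not show binding. A window without a match does not show that a gene lacks an E2F site. Other spellings and sites outside the window were not searched, and the RefSeq starts were not checked. The median genotype difference was -0.07 log2 units over the 11 tested members with a matching E2F word and -0.07 over the 20 whose windows held none. Ccne1, the member with the smallest p, was among the latter.

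**Figure D1:**
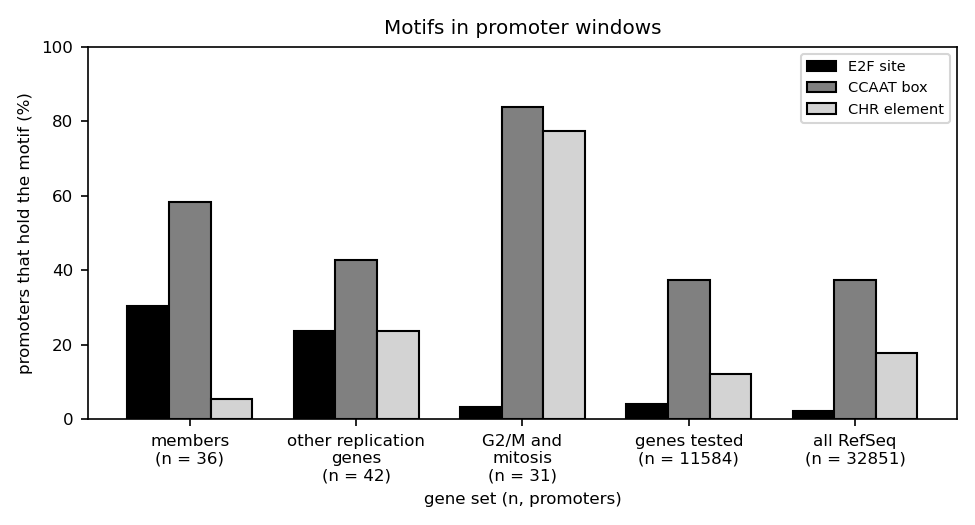
Share of promoter windows (vertical axis, %) that hold an E2F site, a CCAAT box or a CHR element, by gene set. The bars for E2F reach 30.6% in the members and 3.98% in the genes tested, and the CHR element reaches 77.4% in G2/M and mitosis genes and 5.56% in the members.

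Most transcripts of the replication machinery differed little between mutant and wild-type hearts. The median absolute difference was 0.07 log2 units over the members and 0.11 over all genes tested. By limma, 0 of the 38 members passed at an adjusted p under 0.05 in either direction, where 1.76% of all 11113 genes tested did (0.369% lower, 1.39% higher in mutants). A missed threshold does not show that the genotypes are alike. In simulated data the same fit called 46.3% of genes changed by 0.5 log2 units. At an unadjusted p under 0.05, 2 members were lower, Ccne1 and Orc1, and 0 were higher, beside 6.33% of all genes lower and 8.40% higher. All differences below are log2 values of mutants minus wild type. They were negative for 33 of 38 members, beside 52.8% of all genes tested, and the median member difference was -0.07, beside -0.01 for all genes. That count varied with the array left out. It was 20 of 38 without wild-type replicate 1 (median -0.01), beside 51.7% of all genes. Without mutant replicate 3 it was 23 of 38 (median -0.02), beside 49.2%. The most members read highest on the former array and lowest on the latter, so a fall in the count is partly built in. Without wild-type replicate 2 or 3 the count was 36 or 31, and without mutant replicate 1 or 2 it was 33 each time. It was 30 of 38 with quantile normalization, beside 48.6% of all genes, and 23 of 38 with each array centred on its own median, beside 41.7%. Centring moved all genes by the same amount: the members' median lay 0.06 below that of all genes in both of these settings and without rescaling.

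The intervals of the differences were narrow for most members, as they were for most genes tested. Of 38 members, 37 had a 95% interval for the difference (from limma, not adjusted for the number of genes) that lay above a fall of 1.5-fold, and 92.2% of all genes did. The exception was Orc1. All 38 had an interval below a rise of 1.5-fold, so that 37 lay within 1.5-fold both ways, as did 85.2% of all genes. With the filter at the 75th percentile, which keeps brighter genes, 30 of 30 members lay above the fall, beside 96.2% of all genes. The narrowest bounds were those of Pcna, the sliding clamp, whose interval ran from -0.10 to 0.16, or 0.936-fold to 1.12-fold.

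**Figure D2:**
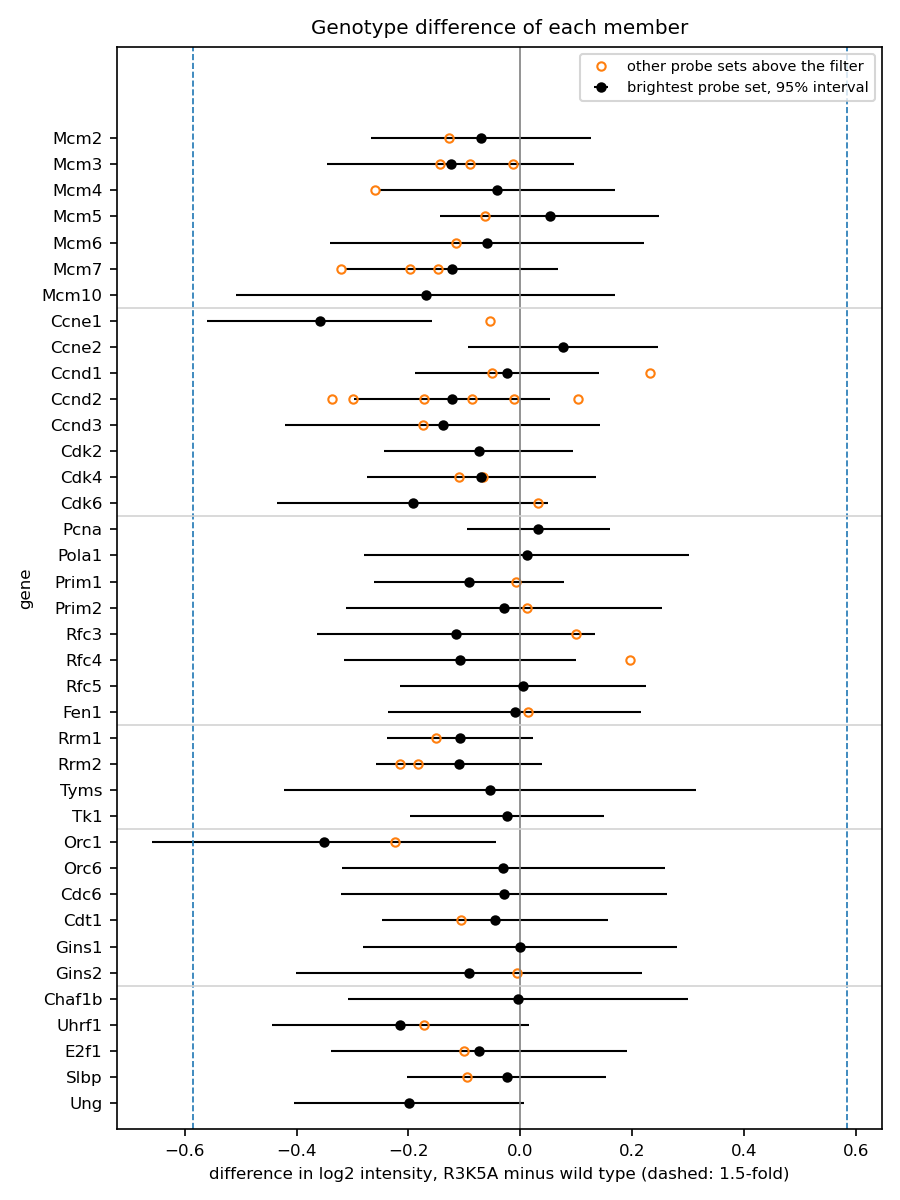
Difference in log2 intensity, mutant (R3K5A) minus wild type, for each of the 38 members (rows), with limma's 95% interval for the brightest probe set and open circles for the gene's other probe sets above the filter. Dashed lines mark 1.5-fold either way; Orc1 is the member whose interval crosses the lower line, and the intervals of Ccne1 and Orc1 lie wholly below 0.

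Of the 7 helicase genes 0 passed and 6 had a negative difference. The mean log2 intensity of Mcm2 to Mcm7 and Mcm10 was 10.46, 10.17 and 10.21 on wild-type replicates 1, 2 and 3 and 10.24, 10.30 and 10.08 on mutant replicates 1, 2 and 3. The genotypes overlapped, with the highest value on wild-type replicate 1 and the lowest on mutant replicate 3. The difference of the means was -0.08, and without wild-type replicate 1 it was 0.01. Mcm7 read 11.39, 11.14 and 11.17 in wild type and 11.17, 11.17 and 10.99 in mutants, a difference of -0.12 (SE 0.08, limma adjusted p = 0.528). The wild-type arrays other than replicate 1 lay at or just below the upper mutant values. Mcm3 read 10.22, 10.08 and 9.96 in wild type and 9.998, 10.09 and 9.81 in mutants, a difference of -0.12 (SE 0.10, limma adjusted p = 0.585). Its genotypes overlapped as well. The differences of Mcm2, Mcm4 and Mcm6 were -0.07, -0.04 and -0.06, and Mcm5 had 0.05. Mcm10, which binds the loaded helicase and helps to activate it, had -0.17 with an interval from -0.51 to 0.17. For the 7 genes the lowest interval bound was a fall of 1.42-fold, that of Mcm10, and the highest a rise of 1.19-fold, that of Mcm5.

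The probe sets of Mcm7 were uneven. All 4 were above the filter and negative, at -0.12, -0.15, -0.20 and -0.32. The last read 10.38, 10.37 and 10.15 in wild type and 9.94, 10.06 and 9.93 in mutants, which did not overlap. In a fit of all 22518 probe sets above the filter its adjusted p was 0.153 by limma. The 2 probe sets of Mcm5 above the filter disagreed in sign, at 0.05 and -0.06.

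Among cyclins and their kinases, Ccne1, which encodes cyclin E1, had the largest difference. It read 9.26, 9.34 and 9.44 log2 units in wild type and 8.93, 9.09 and 8.93 in mutants. Every mutant array lay below every wild-type array. The difference was -0.36 (SE 0.09, 1.28-fold lower, interval -0.56 to -0.16), with an unadjusted p of 0.00295 and an adjusted p of 0.0949 by limma, and it ranked 346 of 11113 genes by p. The adjusted p ran from 0.0570 to 0.412 over the alternatives, and without wild-type replicate 1 the difference was -0.40. Averaged over both probe sets of the gene it was -0.21. A second Ccne1 probe set did not show it. That one read 7.79, 7.97 and 7.33 in wild type and 7.77, 7.64 and 7.52 in mutants, a difference of -0.05. Ccne2, which encodes cyclin E2, had a positive difference of 0.08 (interval -0.09 to 0.25).

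The D cyclins, which respond to growth signals, did not pass. Ccnd1, Ccnd2 and Ccnd3 had -0.02, -0.12 and -0.14. Ccnd1 and Ccnd2 had probe sets of both signs. The third probe set of Ccnd1 read 9.91, 9.91 and 9.89 in wild type and 10.13, 10.09 and 10.19 in mutants, a difference of 0.23 without overlap (adjusted p = 0.195 over all probe sets by limma). The 7 probe sets of Ccnd2 ran from -0.34 to 0.10. The lowest read 8.80, 8.83 and 8.64 in wild type and 8.28, 8.44 and 8.53 in mutants, without overlap (adjusted p = 0.206 over all probe sets by limma). Cdk6 read 10.12, 10.34 and 10.57 in wild type and 10.12, 10.21 and 10.13 in mutants, a difference of -0.19 (SE 0.11, limma adjusted p = 0.441). Its wild-type values spread more widely than the genotypes differed, and its second probe set had 0.03. Cdk2 and Cdk4 had -0.07 each. The mean of the 8 genes was 10.71, 10.70 and 10.68 in wild type and 10.60, 10.65 and 10.50 in mutants, a difference of -0.11. The genotypes did not overlap in that mean. They did without Ccne1 (difference -0.08) and with each array centred on its median. They also did with each gene's probe sets averaged, those below the filter included (difference -0.07). Without wild-type replicate 1 the difference of the mean was still -0.11.

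Genes of the replication fork were near 0. The mean of Pcna, Pola1, Prim1, Prim2, Rfc3, Rfc4, Rfc5 and Fen1 was 9.82, 9.54 and 9.66 in wild type and 9.63, 9.64 and 9.63 in mutants. The mutant arrays lay within the wild-type range. The difference was -0.04, or 0.04 without wild-type replicate 1. Prim1, the catalytic subunit of primase, read 9.997, 9.82 and 9.90 in wild type and 9.79, 9.81 and 9.85 in mutants, a difference of -0.09 (SE 0.08, limma adjusted p = 0.602). Rfc4, a subunit of the clamp loader, read 10.09, 9.76 and 9.91 in wild type and 9.82, 9.80 and 9.82 in mutants, a difference of -0.11 (SE 0.09, limma adjusted p = 0.615). Its second probe set had 0.20. The 2 probe sets of Rfc3 also disagreed, at -0.11 and 0.10. Pcna had 0.03, Pola1, the catalytic subunit of polymerase alpha, 0.01, and Fen1, the flap endonuclease that trims Okazaki fragments, -0.01.

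Of the genes for nucleotide synthesis, those of ribonucleotide reductase were lower by small amounts that did not pass. Rrm1, the large subunit, read 11.05, 10.95 and 10.97 in wild type and 10.89, 10.88 and 10.87 in mutants. The genotypes did not overlap, and the difference was -0.11 (SE 0.06, 1.08-fold lower, limma adjusted p = 0.426). Its second probe set, at -0.15, did not overlap either. Rrm2, the small subunit made in S phase, read 11.91, 11.75 and 11.96 in wild type and 11.72, 11.74 and 11.83 in mutants, a difference of -0.11 (SE 0.07, limma adjusted p = 0.467). The genotypes overlapped. Another Rrm2 probe set read 11.49, 11.57 and 11.35 in wild type and 11.26, 11.23 and 11.27 in mutants, a difference of -0.21 without overlap (adjusted p = 0.202 over all probe sets by limma). Tk1 had -0.02 and Tyms -0.05, the latter read by a probe set close to the filter level. The mean of the 4 genes was 9.86, 9.70 and 9.75 in wild type and 9.75, 9.71 and 9.64 in mutants. The difference was -0.07, or -0.03 without wild-type replicate 1. The genotypes overlapped, and did not with each gene's probe sets averaged, which takes in those below the filter and leaves 3 of the 4 genes.

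In the licensing and firing of origins, Orc1, the largest subunit of the origin recognition complex, had the largest difference. It read 6.91, 6.79 and 6.87 in wild type and 6.32, 6.65 and 6.54 in mutants. The genotypes did not overlap. The difference was -0.35 (SE 0.14, 1.28-fold lower, interval -0.66 to -0.04), with an unadjusted p of 0.0297 and an adjusted p of 0.272 by limma. Its second probe set had -0.22 with overlap, and both lay near the filter level of 6.30 log2 units. Without single arrays the difference ran from -0.42 to -0.26. Gins2, a subunit of the GINS complex, read 8.43, 8.07 and 8.08 in wild type and 8.13, 8.27 and 7.91 in mutants, a difference of -0.09 (SE 0.14, limma adjusted p = 0.789) that turned positive without wild-type replicate 1 (0.028) or mutant replicate 3 (0.0071). Orc6, Cdc6, Cdt1 and Gins1 had -0.03, -0.03, -0.05 and -0.00079. The mean of the 6 genes was 8.77, 8.40 and 8.51 in wild type and 8.44, 8.55 and 8.42 in mutants. It overlapped, with a difference of -0.09, and was 0.01 without wild-type replicate 1.

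Among the regulators of chromatin and S phase, Ung, the uracil-DNA glycosylase, read 9.32, 9.07 and 9.25 in wild type and 9.04, 9.03 and 8.97 in mutants. The genotypes did not overlap, by a narrow margin, and the difference was -0.20 (SE 0.09, 1.15-fold lower, limma adjusted p = 0.354). Uhrf1, which brings the maintenance DNA methyltransferase to newly copied DNA, read 10.19, 10.44 and 10.08 in wild type and 10.06, 10.10 and 9.91 in mutants. The difference was -0.21 (SE 0.10, limma adjusted p = 0.374), the genotypes overlapped slightly, and its second probe set had -0.17. E2f1 had -0.07, Slbp, which binds the stem-loop of histone mRNAs, -0.02, and Chaf1b, a subunit of the histone chaperone CAF-1, -0.0035. The mean of the 5 genes read was 9.23, 9.18 and 9.14 in wild type and 9.12, 9.12 and 8.99 in mutants, a difference of -0.10 without overlap. It overlapped with each array centred on its median. It also did with each gene's probe sets averaged, which takes in those below the filter and leaves 4 of the 5 genes (difference -0.17). Without wild-type replicate 1 the difference was -0.08.

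**Figure D3:**
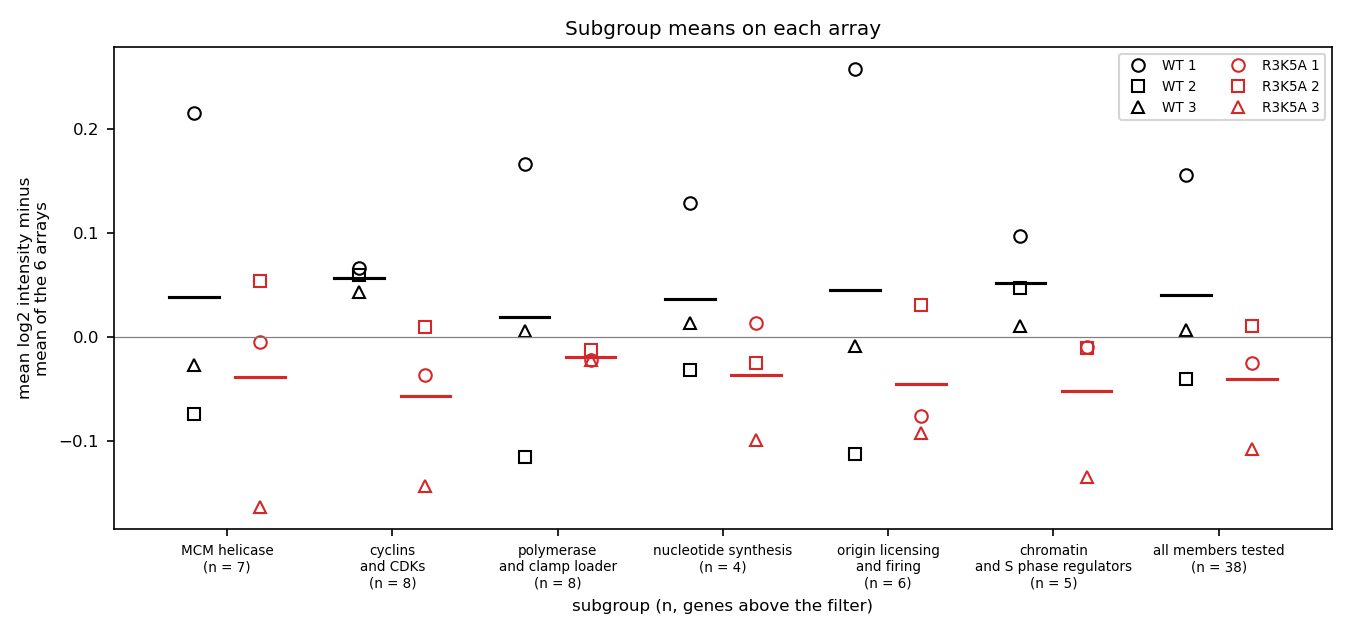
Mean log2 intensity of each subgroup on each array, minus its mean over the 6 arrays (vertical axis); black symbols are wild type, red are mutants (R3K5A), symbol shapes are replicates 1 to 3 and horizontal bars are genotype means. Wild-type replicate 1 is the highest point in every subgroup, and mutant replicate 3 is the lowest for the MCM helicase, the cyclins and CDKs, nucleotide synthesis and the chromatin regulators.

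In all, the genotypes did not overlap for 4 members, Ccne1, Orc1, Rrm1 and Ung, all lower in mutants, where 9.76% of all genes tested were lower without overlap and 11.5% higher. Of the 38 members 0 were higher without overlap. Most other probe sets of a gene had the sign of its brightest one. Of 37 above the filter, on 25 members, 29 did. Those of opposite sign belonged to Ccnd1, Ccnd2, Cdk6, Fen1, Mcm5, Prim2, Rfc3 and Rfc4. Of the 37, 30 were negative, as were 33 of the 38 brightest ones. Much of the agreement in sign follows from these counts alone, on the same arrays. Of all 75 member probe sets above the filter 63 were negative, beside 55.5% of all 22518 probe sets in that limma fit, and 0 passed, beside 0.99%. At an unadjusted p under 0.05, 4 of the 37 others were lower and 1 was higher, beside 6.79% and 7.05% of all probe sets.

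The array that set the members apart was wild-type replicate 1. It had the highest reading of the 6 arrays for 28 of 38 members (73.7%), and for 15.9% of all genes tested. The members lay on average 0.16 log2 units above their own means on that array, while the mean over all genes tested was -0.01 there. All 7 MCM genes, all 6 licensing and firing genes and 7 of the 8 genes of the replication fork were highest there, beside 2 of the 8 cyclins and CDKs. Mutant replicate 3 had the lowest reading for 18 of 38 members (47.4%), beside 23.6% of all genes, with a mean of -0.11. Wild-type replicate 2 was lowest for 12 members (31.6%), close to its 27.9% of all genes. Mutant replicates 1 and 2 lay near the members' means, at -0.02 and 0.01.

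**Figure D4:**
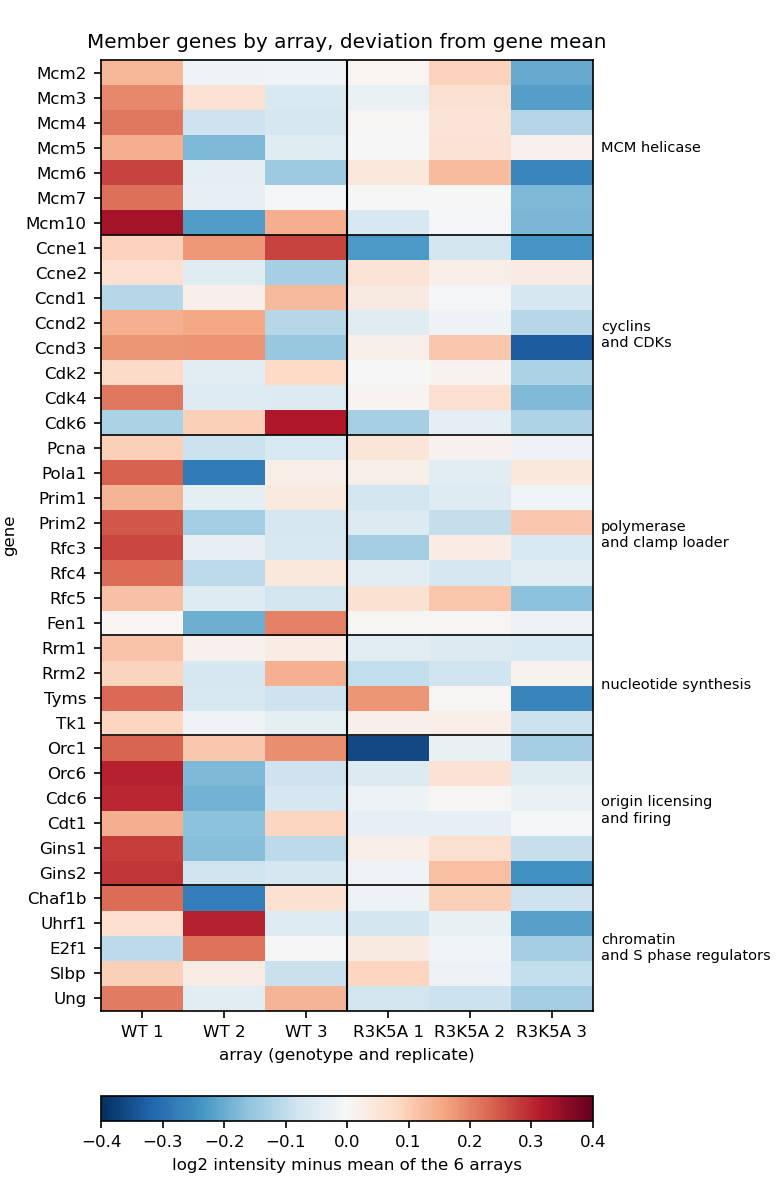
Log2 intensity of each member (rows, grouped by subgroup) on each array (columns), minus the gene's mean over the 6 arrays, from blue (lower) to red (higher). Wild-type replicate 1 is the highest array for 28 of the 38 members, and Ccne1 and Orc1 are lower on all 3 mutant arrays than on all 3 wild-type arrays.

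Wild-type replicate 1 also differed from the other wild-type arrays in its control signals. The mean intensity of the 18S ribosomal RNA controls was 969 there, against 429 and 411 on the other wild-type arrays and 631 to 1051 on mutant arrays, and 451 of all genes passed without it, against 196 with all arrays. The member differences without this array are given above. The part of the ribosomal RNA signal was not tested.

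**Figure D5:**
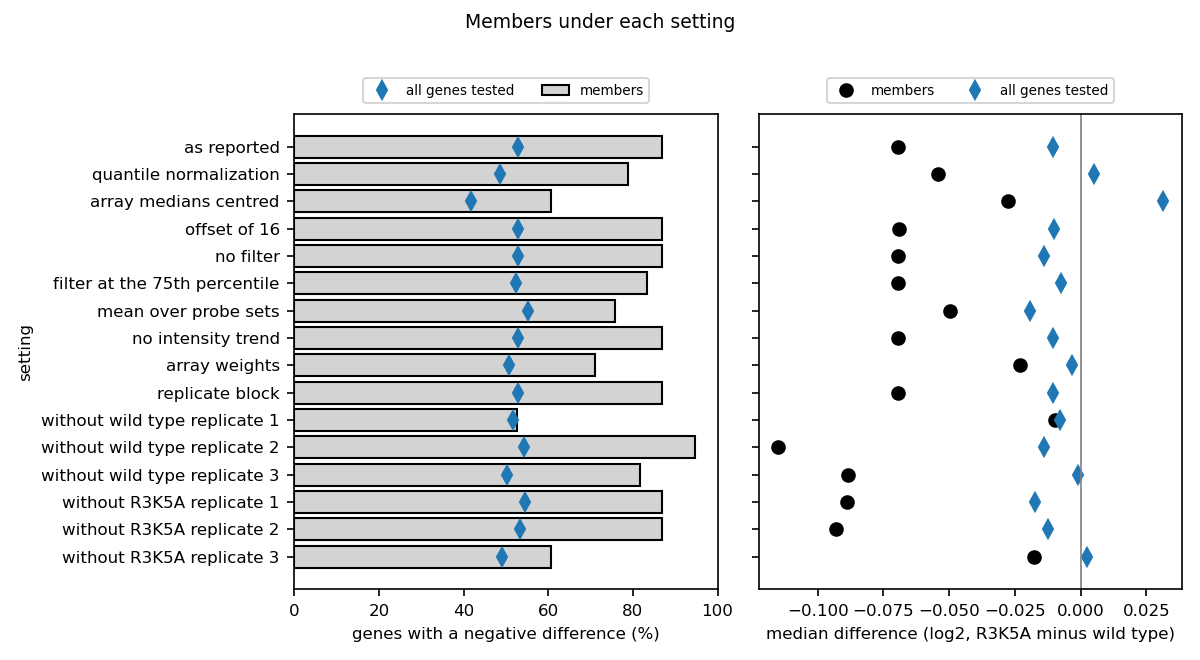
Left, share of genes with a negative difference (%) among the members (bars) and among all genes tested (diamonds) under each setting; right, the median difference (log2, mutant minus wild type). The bar falls from 86.8% to 52.6% without wild-type replicate 1, next to the 51.7% of all genes, and the members' median is negative in every setting shown.

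The rest of the cell cycle was read from lists beside the members. Of 37 tested replication genes outside the set, 0 passed by limma (3 lower at an unadjusted p under 0.05), 23 were negative and the median was -0.03. Of all genes tested 1.76% passed, 6.33% were lower at that unadjusted p and 52.8% were negative. Wild-type replicate 1 was the highest array for 23 of the 37, beside 15.9% of all genes. The smallest p belonged to Dnmt1, the maintenance DNA methyltransferase that Uhrf1 guides, which read 10.19, 10.29 and 9.999 in wild type and 9.94, 9.92 and 9.72 in mutants, a difference of -0.30 (limma adjusted p = 0.195) without overlap. Dck, which salvages deoxynucleosides, followed with -0.22. Of 16 genes of the E2F and retinoblastoma families 0 passed (1 lower at an unadjusted p under 0.05). E2f4, a mostly repressive E2F, read 7.88, 8.40 and 8.53 in wild type and 7.78, 7.77 and 7.94 in mutants, a difference of -0.44 (limma adjusted p = 0.249) with overlap. Rbl1, which encodes the retinoblastoma relative p107, had 0.14.

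Among inhibitors of cyclin-dependent kinases, 1 rose in mutants. Cdkn1a, which encodes p21, an inhibitor of cyclin E with CDK2, read 8.09, 8.28 and 8.16 in wild type and 8.98, 9.01 and 8.76 in mutants. The difference was 0.74 (SE 0.10, 1.67-fold, limma adjusted p = 0.0120). It was the 1 call among 5 tested inhibitors, where 1.39% of all genes tested were called higher. By limma the call was lost without wild-type replicate 3 (adjusted p = 0.0532), mutant replicate 1 (0.0940) or mutant replicate 2 (0.0591), and with probe sets averaged (0.0622). The difference was 0.73, 0.71, 0.69 and 0.63 in these fits, and the number of all genes called fell to 61, 37, 84 and 125. Cdkn1b, Cdkn1c, Cdkn2c and Cdkn2d had -0.15, 0.19, 0.02 and 0.01.

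Genes of G2/M and mitosis, the next step of the cycle, also had mostly negative differences. Of 33 tested, 0 passed by limma (3 lower at an unadjusted p under 0.05) and 30 were negative, with a median of -0.10. Of all genes tested 6.33% were lower at that unadjusted p and 52.8% were negative. The count of negative differences in the list was 25 without wild-type replicate 1, beside 51.7% of all genes. It was 23 without mutant replicate 3, beside 49.2%. The genotypes did not overlap for 9 of the 33, all lower, where 9.76% of all genes tested were lower without overlap. Wild-type replicate 1 was the highest array for 16 and mutant replicate 3 the lowest for 18. Bub1b, a checkpoint kinase of mitosis, read 9.89, 9.92 and 9.88 in wild type and 9.67, 9.78 and 9.56 in mutants, a difference of -0.23 (limma adjusted p = 0.224). Kif11, a motor of the spindle, had -0.17. The markers of cycling cells Mki67 and Top2a had -0.05 (interval -0.20 to 0.11) and -0.08 (interval -0.28 to 0.12).

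Markers of the cell types that a heart sample can hold were read on the same arrays. All 10 cardiomyocyte markers were above the filter and 0 passed, with a log2 summed intensity of 16.25 to 16.31 in wild type and 16.32 to 16.36 in mutants. At an unadjusted p under 0.05 by limma 2 of the 10 were higher, beside 8.40% of all genes tested. Of 12 epicardial markers 7 rose, with summed levels of 12.75 to 12.84 and 13.07 to 13.17, where 1.39% of all genes tested were called higher. Another 4 were negative, 1 of them at an unadjusted p under 0.05 by limma. Negative differences were also found in 3 fibroblast and valve markers and 2 endothelial ones. Of 10 fibroblast and valve markers 3 rose (15.01 to 15.12 in wild type, 15.16 to 15.25 in mutants), and of 10 endothelial markers 1, Vwf (13.48 to 13.60 and 13.65 to 13.74). Of 7 macrophage and leukocyte markers tested 0 passed (10.99 to 11.37 and 11.37 to 11.46). Of these 7, 6 were positive and 3 were higher at an unadjusted p under 0.05 by limma. Of erythroid markers, whose precursors divide, 7 of 11 were read and 3 tested, with 0 passing and summed levels that overlapped (12.01 to 12.31 and 12.01 to 12.22). Thymus markers, of which 1 was tested, stood at 7.90 to 8.31 and 7.85 to 8.02. The 1 tested had a difference of -0.34, with overlap and an unadjusted p under 0.05 by limma. Lung and airway markers reached 11.85 on mutant replicate 3, the array with the lowest member readings, and 9.77 on mutant replicate 1, against 8.52 to 9.13 in wild type, and among them Scgb3a2, a secretoglobin of the airway, read 11.36 on mutant replicate 3. The part of these cells in the member differences was not tested. Without mutant replicate 3, 23 of 38 members (60.5%) were negative, beside 49.2% of all genes tested.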

How the data were processed

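Whole-heart RNA (3 µg per sample) was biotin-labelled and hybridised to 1-colour Affymetrix arrays, per the labels' protocols. The authors deposited linear probe set intensity values, already scaled between arrays as the values show (array medians within 0.12 log2 units, at intensities of 77.4 to 84.1). How they were normalized, and with what software, is not given in the sources used here. Detection calls were not used, and the small number of arrays limits precision.

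Intensities were floored at 1 and log2-transformed. Each gene was read by its brightest probe set with exactly 1 symbol, and genes were tested where their mean exceeded the median of all non-control probe sets (6.30 log2 units). The comparison of genotypes used limma 3.58.1 under R 4.3.3 (lmFit, eBayes with an intensity trend, two-sided, Benjamini-Hochberg over 11113 genes, called under 0.05), and the fit was tested on simulated data. Means over subgroups and lists have no test. Named genes were the 2 members of each subgroup with the smallest p, members called or without overlap, and from each other list of cycle genes the called ones or the 2 with the smallest p, besides Cdkn1a, Mki67, Top2a and Scgb3a2. The Mcm7, Ccnd1, Ccnd2 and Rrm2 probe sets described were picked with their values known. Members, lists and tests were chosen with earlier results of these data known. Alternatives covered the scaling, offset, filter, probe sets, variance model, array weights, replicate number and each array left out.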

Additional observations from a re-analysis of the deposited data

How the results depend on the processing

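Under the 15 alternatives 0 of the members passed, and the members' median difference ran from -0.12 to -0.0098. The number of members with a negative difference ran from 20 (without wild-type replicate 1) to 36 (without wild-type replicate 2), and that of intervals above a 1.5-fold fall from 35 to 37 when single arrays were left out. The number of all genes called was 196, and 81 with no filter, 106 with a filter at the 75th percentile, 125 with the mean over probe sets, 119 without the intensity trend, 429 with array weights and 37 to 451 without single arrays. With the mean over probe sets, the chromatin and S phase regulators had -0.17 and Rfc4 had 0.044. This setting averages in probe sets below the filter, and it left 4 of the 5 regulators. The value of Rfc4 is the mean of its probe sets at -0.11 and 0.20. Without single arrays Gins2 ran from -0.17 to 0.028, with 0.0071 without mutant replicate 3. The causes of the other shifts were not tested. With the replicate number as a block 234 genes and 0 members passed, and Ccne1 had an adjusted p of 0.0943 by limma. Same-numbered arrays deviated together with r = -0.06, 0.13 and 0.41, and not every array correlated best with its own number, so they share only a number. The median standard error of a member difference was 0.0953 log2 units, against a median absolute difference of 0.0718. Orc1 was not tested with the filter at the 75th percentile, which left 30 members, and the mean over probe sets left 33.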
